A study of Mus musculus with 8 samples.

Results

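The Zfp genes are the mouse genes whose symbol is Zfp followed by a number, most of them encoding zinc finger proteins. All symbols of this form were taken from the 3' UTR, CDS, 5' UTR and intron gene annotation of a table of Argonaute-bound RNA clusters, which gave 209 Zfp genes among 9962 genes named. They held 596 clusters of the 70142 in the table, or 0.850%, and 0.819% of its reads. The 9753 other genes held 55246 clusters that name no Zfp gene, and the remaining clusters name no gene in these 4 annotations.

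The clusters came from HITS-CLIP, which fixes RNA to its bound protein with ultraviolet light, here precipitated tagged Argonaute with a FLAG antibody, and sequenced the RNA that came with it. The 5 Flag-Ago2 libraries were made from forebrains of mice that carry both Camk2a-cre and the Rosa-Stopfl/fl-Flag-Ago2 allele. Cre driven by the Camk2a promoter removes a stop cassette there and so switches on Flag-tagged Ago2, placed at Rosa26, in forebrain neurons. The 3 control libraries were made from Rosa-Stopfl/fl-Flag-Ago2 mice, which carry the same allele and no Cre. Mice of both groups were 8 to 14 weeks old, and their tissue was irradiated 3 times at 400 mJ/cm2 in 3 experiments. The table gives 1 read count per cluster for the whole study and 0 columns of a single library. The Flag-Ago2 and control groups are therefore not compared, no value has a replicate spread, and no background from control mice can be set beside it. Clusters of 1 gene share their transcript and are not replicates. For these reasons no p-value is given, and the 95% intervals cover counting error only.

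Argonaute proteins carry microRNAs and pair them with messenger RNAs, mostly through the seed, the bases near the 5' end of the microRNA. Most Zfp genes encode C2H2 zinc fingers, short repeated units in which a pair of cysteines and a pair of histidines hold a zinc ion and which usually bind DNA. Many C2H2 genes also encode a KRAB domain, which recruits Trim28 and the histone methyltransferase Setdb1 to silence transposable elements. The family has grown by tandem duplication, so its members lie in groups on the chromosomes and their finger-coding sequences resemble each other. The repeated finger units are known to give the coding sequences of such genes several copies of the site for miR-181, a microRNA family of lymphocytes and brain.

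The microRNAs compared are shown with bases 2 to 8 in capitals, since their pairing word defines the sites that follow. The sequences are those of RefSeq on GRCm38.p6. miR-181a-5p is encoded at chr1:137966468-137966490 (plus strand) and again on chromosome 2, miR-181b-5p at chr1:137966650-137966673 (plus strand) and on chromosome 2, and miR-23a-3p at chr8:84208563-84208583 (plus strand).
miR-181a-5p: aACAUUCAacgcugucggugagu
miR-181b-5p: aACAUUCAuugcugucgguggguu
miR-23a-3p: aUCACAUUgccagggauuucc
The deposited microRNA columns count the 6 bases complementary to microRNA bases 2 to 7, which are GAATGT for miR-181a-5p and ATGTGA for miR-23a-3p. A count of these words on the transcribed strand, in which a word had to share at least 1 base with its cluster, equalled both deposited columns in 139 of 139 Zfp coding clusters that lie inside 1 exon, and in 4542 of 4542 such clusters of other genes. It did so in 121 of 121 Zfp 3' UTR clusters and 7829 of 7829 of other genes. The 4 columns of the miR-181a-5p to miR-181d-5p family hold the same values and cannot be separated, nor can the 2 columns of miR-23a-3p and miR-23b-3p. The words themselves overlap, so that GAATGTGA holds both.

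The coding sites that carry the main observation are shown with 12 bases on either side of GAATGT, which is in capitals. They are the deepest coding clusters with a match that overlaps a finger by at least 1 base, plus 2 near-identical genes and the site-rich Zfp420, on mm10 (GRCm38).
Zfp583, chr7:6317025-6317054 (minus strand): gagcgaccttttGAATGTattgaatgtgga
Zfp583, chr7:6317016-6317045 (minus strand): tttgaatgtattGAATGTggaaaagcattt
Zfp870, chr17:32882749-32882778 (minus strand): gagagaccctatGAATGTgagacgtgcggg
Zfp60, chr7:27748500-27748529 (plus strand): gagaagccctatGAATGTaaggactgtggg
Zfp560, chr9:20348290-20348319 (minus strand): gagagaccctttGAATGTgatcactgtgga
Zfp960, chr17:17088400-17088429 (plus strand): gagagaccttatGAATGTaatcagtgtggc
Zfp97, chr17:17145615-17145644 (plus strand): gagagaccttatGAATGTaatcagtgtggc
Zfp420, chr7:29875776-29875805 (plus strand): gagaaaccttatGAATGTagggaatgtggg
In all but the second Zfp583 line, the TGT of the word is the codon of the first cysteine of a finger, and the bases before it encode the linker between neighbouring fingers. In the second Zfp583 line the TGT encodes the second cysteine of the same finger. The Zfp960 and Zfp97 lines are the same 30 bases at different places on chromosome 17. The Zfp870 and Zfp560 lines hold GAATGTGA, and so count for miR-181a-5p and for miR-23a-3p.

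More Zfp genes had clusters in coding sequence than in any other exonic region. Among other genes too, more had a CDS cluster than a 3' UTR cluster. A CDS cluster was found in 127 of the 209 genes, a 3' UTR cluster in 72, a 5' UTR cluster in 30 and an intron cluster in 144. Of the 9753 other genes, 6329 had a CDS cluster and 4731 a 3' UTR cluster, counting the first gene named in each cluster. The remaining counts of this paragraph, apart from exonic clusters, were not made for other genes. Both CDS and 3' UTR clusters were found in 43 genes, CDS without 3' UTR in 84, and 3' UTR without CDS in 29. Exonic clusters were present in 165 Zfp genes, or 78.9%, against 7945 of the 9753 other genes, or 81.5%. The other 44 Zfp genes had intron clusters only. A single cluster was all that 96 genes had, 99 genes had 2 to 9, and 14 had 10 or more.

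Over all clusters, Zfp genes had a larger share in CDS and in 3' UTR than other genes, and a smaller share in introns. Clusters naming a gene in CDS were 209 of 596 in Zfp genes, or 35.1% (95% Wilson interval 31.3 to 39.0), against 14234 of 55246 in other genes, or 25.8% (25.4 to 26.1). The difference was 9.30 percentage points (Newcombe interval 5.56 to 13.2). In the 3' UTR the shares were 21.6% (18.5 to 25.1) in Zfp genes, from 129 clusters, and 16.6% (16.3 to 16.9) in other genes, a difference of 5.07 points (1.94 to 8.57). In the 5' UTR they were 6.04% in Zfp genes and 3.66% in other genes. Intron annotation was attached to 56.4% of Zfp clusters and to 77.4% of those of other genes, a difference of -21.0 points (-25.1 to -17.1). A cluster counts in each region whose annotation names the gene, so these shares add up to more than the whole: 76 Zfp clusters name both CDS and intron, and 10 name both CDS and 3' UTR. With 1 cluster per gene, the deepest, the CDS difference was 1.30 points (-5.20 to 8.14) and the 3' UTR difference was -5.15 points (-10.3 to 0.968), both with intervals that include 0.

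The larger CDS and 3' UTR shares were not seen among exonic clusters alone. Of 349 exonic Zfp clusters, 59.9% (54.7 to 64.9) were in CDS, against 62.5% (61.8 to 63.1) of 22789 in other genes, a difference of -2.57 points (-7.83 to 2.47). The 3' UTR held 37.0% (32.1 to 42.1) of exonic Zfp clusters and 40.2% (39.5 to 40.8) of those of other genes, a difference of -3.21 points (-8.14 to 2.01). Both intervals include 0. By reads the balance within exons was different: CDS clusters held 51.5% of the exonic reads of Zfp genes and 62.6% of those of other genes, and 3' UTR clusters held 45.8% in Zfp genes and 40.6% in other genes. The 3' UTR share by reads includes 566 reads of 1 Zfp871 cluster.

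**Figure D1:**
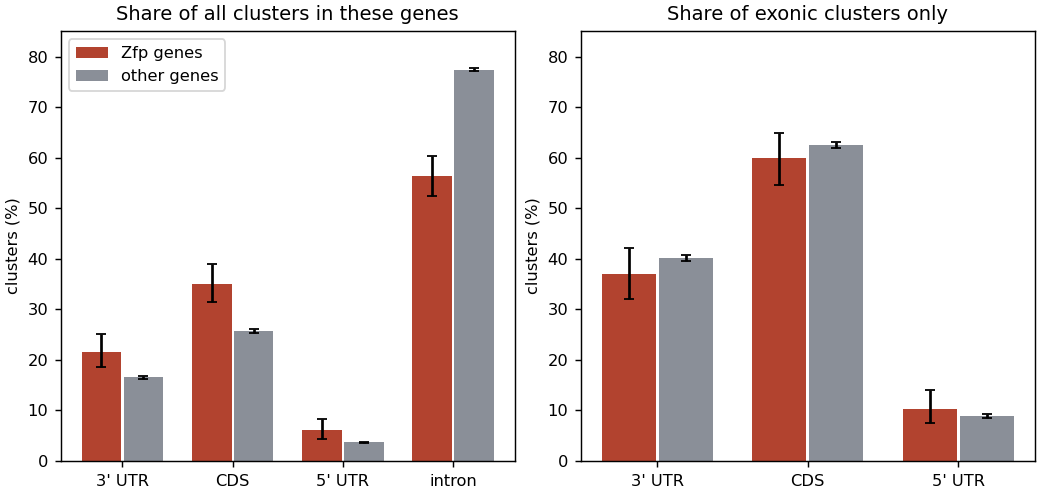
Share of clusters (%) whose annotation names a gene in each region, for Zfp genes (red) and other genes (grey), over all clusters in these genes at the left and over exonic clusters only at the right; bars start at 0 and lines are 95% Wilson intervals. CDS is 35.1% in Zfp genes against 25.8% in other genes over all clusters, and 59.9% against 62.5% over exonic clusters.

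Relative to the length of their coding sequences, Zfp genes had fewer clusters than other genes. With 1 transcript per gene from GENCODE M21, the 205 Zfp genes with a protein model had 481 CDS clusters per megabase of coding sequence, against 737 in other genes named in the table. In 3' UTRs they had 332 clusters per megabase, against 569 in other genes. The median coding length was 1815 bases in Zfp genes and 1572 bases in other genes, and the median 3' UTR length was 1394 bases in Zfp genes and 1170 bases in other genes. Of 393 annotated protein-coding Zfp genes, 205, or 52.2%, are named in the table, against 43.4% of 21363 other protein-coding genes.

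The depth and width of Zfp clusters were close to those of clusters elsewhere. Zfp clusters held 10 to 566 reads with a median of 18.5, against a median of 19 in other genes. Clusters of 100 or more reads were 1.51% of Zfp clusters, 9 in number, and 1.47% of those of other genes. The median width was 126.5 bases in Zfp genes and 127 in other genes. By region, the median was 22 reads in 3' UTR clusters of Zfp genes and 21 in those of other genes, 19 in CDS clusters of Zfp genes and 21 in those of other genes, and 18 in intron clusters of Zfp genes against 19 in those of other genes. A circRNA identifier was attached to 18.0% (15.1 to 21.2) of Zfp clusters and to 15.8% (15.5 to 16.1) of clusters of other genes.

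Per gene, however, Zfp genes held fewer exonic reads than other genes by the median. Among genes with an exonic cluster, the median was 32 exonic reads in Zfp genes, with a range of 10 to 738, and 49 exonic reads in other genes. The median number of exonic clusters was 1 in Zfp genes and 2 in other genes. The 10 Zfp genes with the most exonic reads held 3093 of 9749, or 31.7%. The matching share was not computed for other genes, so it cannot be called high or low. Reads per gene are sums over clusters that are not divided by length, and in forebrain tissue fewer cells of a type and less RNA per cell cannot be told apart.

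Zfp871, a C2H2 gene with 15 finger patterns, stood first with 738 exonic reads, 705 in its 3' UTR and 33 in CDS. Its deepest cluster, at chr17:32773987-32774170 on the minus strand, held 566 reads and has a circRNA identifier. The other 8 exonic clusters of Zfp871 held 11 to 37 reads each. A single 3' UTR position thus carried most of the reads of this gene.

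Zfp704 followed with 462 exonic reads in 13 clusters, the most of any Zfp gene, and 11 of these were in the 3' UTR. They held 10 to 111 reads each, with no cluster as dominant as in Zfp871. Zfp462, a large protein with 33 finger patterns whose human counterpart is mutated in a neurodevelopmental syndrome, had 268 exonic reads, 137 of them in 1 CDS cluster and 80 in 1 3' UTR cluster. Zfp60, with 19 patterns, had all of its 263 exonic reads in CDS, in clusters of 166, 53, 22 and 22 reads.

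Several of the remaining deep genes were again led by 1 cluster of the 3' UTR. Zfp449 had 238 exonic reads, of which 225 were in 1 3' UTR cluster and 13 in another. Zfp746, which encodes PARIS, a substrate of the ubiquitin ligase parkin, had 232 exonic reads, with 200 in 1 3' UTR cluster and 18 and 14 in CDS. Zfp664 had 218 exonic reads, with 191 in 1 3' UTR cluster.

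Other genes spread their reads over several sites. Zfp106, an RNA-binding protein needed for motor neuron maintenance in mice, had 234 exonic reads in 10 clusters of 11 to 44 reads, most of them in CDS. Zfp282 had 220 exonic reads in 6 clusters, the deepest of 99 reads. Zfp651 had 220 in 7 clusters, the deepest of 74. Zfp609, a partner of the cohesin loader Nipbl in neural progenitors and host of a well-known circular RNA, had 218 exonic reads in 9 clusters of 11 to 45 reads, and 8 of its 12 clusters carry a circRNA identifier. Zfp871 had 9 exonic clusters, and Zfp236, Zfp365 and Zfp651 had 7 each.

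**Figure D2:**
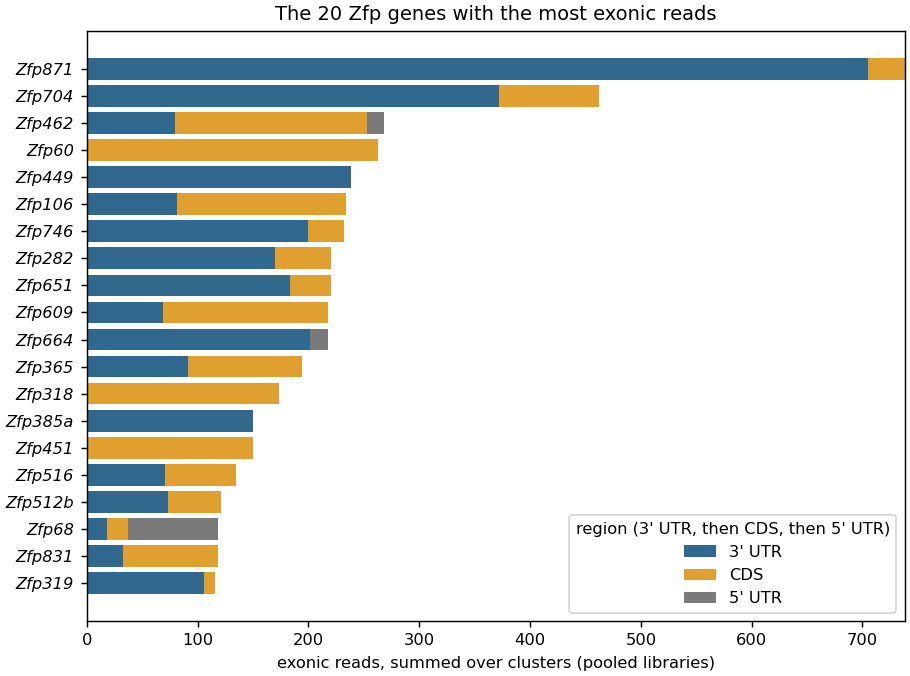
Exonic reads (summed over clusters, pooled libraries) of the 20 Zfp genes with the most, split into 3' UTR (blue), CDS (yellow) and 5' UTR (grey), a cluster with several annotations being drawn in the first of these that it names. Zfp871 reaches 738 reads, nearly all in the 3' UTR, while the 263 reads of Zfp60 are all in CDS.

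Zfp genes listed for a known role ranged from no cluster to the deep Zfp462, Zfp106 and Zfp609 described above. Zfp36l2, which binds AU-rich elements and promotes mRNA decay through fingers of another type, had 112 exonic reads in 3' UTR clusters of 56, 32 and 24 reads, the last reaching into CDS. Its relatives Zfp36 and Zfp36l1 had no cluster, and neither did Zfp57, which keeps imprinted regions methylated, or Zfp42, a marker of pluripotent cells. Zfp365, the mouse counterpart of a human protein that binds DISC1, had 194 exonic reads in 7 clusters, the deepest of 50 reads in CDS. Zfp281, a regulator of pluripotency, had 80 reads in 3 CDS clusters of 40, 26 and 14.

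Zfp644, a partner of the histone methyltransferases G9a and GLP, had 86 exonic reads. Zfp148, a regulator of growth and lineage genes also called ZBP-89, had 67. Zfp410, an activator of Chd4, had 43 in clusters of 31 and 12 reads. Zfp536, a repressor of neuronal differentiation, had 32. Zfp143, known from human cells as a promoter-bound factor, had 10, and Zfp207, which delivers Bub3 to kinetochores, had 11 in its 5' UTR. The Zfp143 value equals the lowest read number of any cluster in the table, and that of Zfp207 is 1 read above it.

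Some long Zfp genes were seen mainly or only in introns. Zfp385b had 17 intron-only clusters with 312 reads, against 21 exonic reads. Zfp804a, the mouse counterpart of a human schizophrenia risk gene, had 15 intron-only clusters with 342 reads and no exonic cluster. Zfp644 had 12 with 273 reads, and Zfp148 had 10 with 332 reads, the deepest holding 111. Zfp532 and Zfp804b had 9 each, with 147 and 177 reads. Zfp423 and Zfp521, related transcription factors of developing brain, had no exonic cluster, and 3 and 2 intron clusters with 47 reads each.

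Most of the listed corepressors that KRAB proteins work with had exonic clusters themselves. Of 16 genes of the KRAB corepressor pathway, 12 had an exonic cluster, and over these 12 the median was 66.5 exonic reads, against 49 over the genes without a Zfp symbol that had one. Trim28, the scaffold that KRAB binds, had 51 exonic reads and Setdb1 had 120. Dnmt3a, a DNA methyltransferase, had 511, and Chd4, a chromatin remodeller of the NuRD complex, had 416. Dnmt1, Uhrf1, Morc3 and Resf1 were not named in an exon. The 16 pathway genes were listed whether named in the table or not. In other zinc finger families, 62 genes are named in the table, and 49 of them had an exonic cluster. Over all named genes without a Zfp symbol, the share with an exonic cluster was 81.5%. The median over the 49 family genes was 42 exonic reads, and Zfhx4, with 303, and Zeb2, with 286, had the most.

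Genes that mark the cells of the forebrain were present as well. Among neuronal markers, Camk2a had 618 exonic reads, Slc17a7 had 88 and Neurod6 had 34. All 4 astrocyte markers had exonic clusters, from 58 reads for Gja1 to 1105 for Slc1a2, and 3 of 4 oligodendrocyte markers, with 298 reads for Mbp and none for Mog. The part of non-neuronal RNA in the Zfp values was not tested.

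Coding clusters of Zfp genes contained the miR-181a-5p word far more often than coding clusters of other genes. At least 1 match was present in 40 of 209 Zfp CDS clusters, or 19.1% (14.4 to 25.0), against 702 of 14234 in other genes, or 4.93% (4.59 to 5.30). Over all CDS clusters of the table the share was 5.14%. The difference was 14.2 points (9.44 to 20.1), and it was positive in each of the 12 alternative settings tried. Not all of these could lower it. Leaving out Zfp106, which had no match, could only raise it, and the setting of clusters naming 1 gene kept 208 of the 209. The 48 matches in Zfp CDS clusters came to 1.63 per kilobase, against 0.337 per kilobase in other genes, a ratio of 4.83. Clusters of Zfp genes with a match were no deeper than those without, with medians of 17.5 and 19 reads.

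The site-rich coding clusters were shallow to moderately deep. Zfp266 had 3 matches in a cluster of 18 reads, and Zfp420 had 3 in a cluster of 16 reads. Zfp583 had 2 matches in a cluster of 84 reads, the deepest of the 6 clusters with more than 1 match. Zfp960, Zfp941 and Zfp260 had 2 matches each, in clusters of 40, 12 and 11 reads. Among clusters with 1 match, the deepest belonged to Zfp870 with 82 reads, Zfp60 with 53, Zfp560 with 52 and Zfp830 with 49. The deepest Zfp60 coding cluster, of 166 reads, had none.

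Not every one of these sites lies in a recognised finger. Both Zfp941 matches and all 3 Zfp266 matches fell outside the finger patterns that were found, and so did that of Zfp830, which has 1 pattern. The sites of Zfp583, Zfp870, Zfp60, Zfp560, Zfp960, Zfp420 and Zfp260 named here overlapped a finger.

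For miR-23a-3p the coding difference was smaller. A match was present in 20 Zfp CDS clusters, or 9.57% (6.28 to 14.3), against 774 in other genes, or 5.44% (5.08 to 5.82), with 5.5% over all CDS clusters. The difference was 4.13 points (0.820 to 8.89). The densities were 0.679 per kilobase in Zfp genes and 0.370 per kilobase in other genes, a ratio of 1.84. No Zfp CDS cluster had more than 1 match. Words holding both seeds, GAATGTGA, were present in 6 Zfp CDS clusters, or 2.88%, against 0.469% of those of other genes. They were counted only within the coding part of clusters placed on a transcript, unlike the deposited matches.

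In 3' UTR clusters the miR-181a-5p word was again more frequent in Zfp genes, by less. A match was present in 17 of 129 Zfp 3' UTR clusters, or 13.2% (8.39 to 20.1), against 7.29% (6.77 to 7.84) in other genes and 7.37% over all 3' UTR clusters. The matching Zfp799 cluster also names CDS and is counted there too, and its site lies in finger-coding sequence. The difference was 5.89 points (1.08 to 12.8). It was 4.58 points (-0.118 to 11.7) without Zfp704 and 2.81 points (-1.74 to 10.3) with the Zfp genes that have 3 or more finger patterns only, and both of these intervals include 0. For miR-23a-3p, 9 Zfp 3' UTR clusters, or 6.98% (3.71 to 12.7), had a match, against 6.63% (6.14 to 7.16) in other genes and 6.64% over all, a difference of 0.346 points (-2.96 to 6.12). No difference in miR-23a-3p matches was detectable in 3' UTR clusters at this number of clusters.

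Seeds of other microRNAs known to be abundant in brain are given for comparison. The miR-128-3p word was present in 16.7% of Zfp CDS clusters and 11.7% of those of other genes, and the miR-124-3p word in 6.22% of Zfp CDS clusters and 6.97% of those of other genes. The differences were 5.06 points (0.572 to 10.7) for miR-128-3p and -0.749 points (-3.33 to 3.40) for miR-124-3p. That of miR-128-3p was larger than the 4.13 points of miR-23a-3p in CDS, with overlapping intervals. In intron-only clusters the miR-181a-5p word was present in 4.45% (2.50 to 7.80) of 247 Zfp clusters and 6.34% of those of other genes, and the miR-23a-3p word in 4.45% of Zfp clusters and 6.38% of those of other genes. In 5' UTR clusters, 5 of 36 Zfp clusters, or 13.9% (6.08 to 28.7), had a miR-181a-5p match, against 3.12% in other genes. The matching clusters of Zfp180, Zfp322a and Zfp410 also name CDS, so they are counted among the CDS matches above too.

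Among the seed words with enough matches to be ranked, miR-181 came first in Zfp coding clusters. The deposited columns hold 885 distinct words, and 81 of them had at least 20 matches in Zfp CDS clusters. Only these 81 were ranked. The ratio of their density in Zfp genes to that in other genes had a median of 1.29 and was above 1 for 70 words. The minimum was set on Zfp clusters alone, so words dense in Zfp genes passed it more easily. The median, the number above 1 and the order of words depend on this minimum. miR-181a-5p came first with 4.83, followed by miR-5098 with 4.64, miR-183-3p with 4.06, miR-188-3p with 2.77 and miR-3057-3p with 2.50. The lowest ratios were 0.711 for miR-214-3p and miR-761, which share a word, 0.828 for miR-320-5p, 0.853 for miR-370-3p, 0.862 for miR-712-5p and 0.871 for miR-1930-5p.

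**Figure D3:**
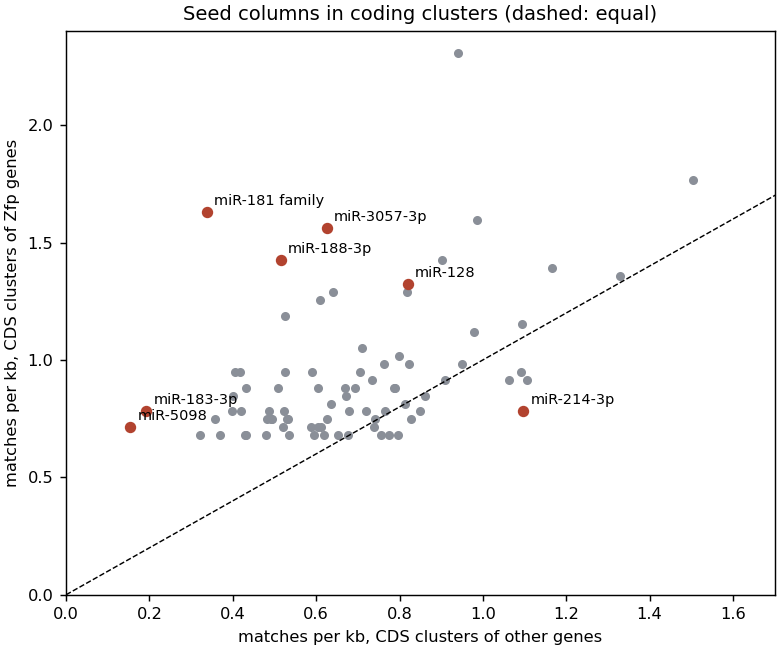
Matches per kilobase of CDS clusters in Zfp genes (vertical) against other genes (horizontal) for the 81 seed words with at least 20 matches in Zfp CDS clusters; the dashed line marks equal density, and 7 of the words named in the text are labelled in red. The miR-181 family lies at 1.63 against 0.337 matches per kilobase, and miR-214-3p lies under the line.

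The miR-181a-5p matches were concentrated in the genes with many fingers. A finger was counted wherever the translated GENCODE coding sequence had a pair of cysteines with 2 to 4 residues between them, 12 further residues, and a pair of histidines with 3 to 5 residues between them. The 205 Zfp genes with a protein model had a median of 9 such patterns and at most 36, in Zfp142. There were 132 genes with 8 or more patterns, 47 with 3 to 7, and 26 with 0 to 2, of which 8 had none, Zfp365 and Zfp36l2 among them.

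Of 114 CDS clusters in genes with 8 or more patterns, 32 had a miR-181a-5p match, or 28.1% (20.6 to 36.9). In genes with 3 to 7 patterns the count was 5 of 54, or 9.26% (4.02 to 19.9), and in genes with 0 to 2 patterns it was 3 of 40, or 7.50% (2.58 to 19.9). The interval of the class with 8 or more patterns lies above the 4.93% of other genes, and the intervals of the remaining classes include it. In genes without a Zfp symbol that have 3 or more patterns, 11 of 149 CDS clusters had a match, or 7.38% (4.17 to 12.7). For miR-23a-3p the shares were 11.4% (6.79 to 18.5), 9.26% (4.02 to 19.9) and 5.0% (1.38 to 16.5) in the 3 Zfp classes, many fingers first, with overlapping intervals.

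**Figure D4:**
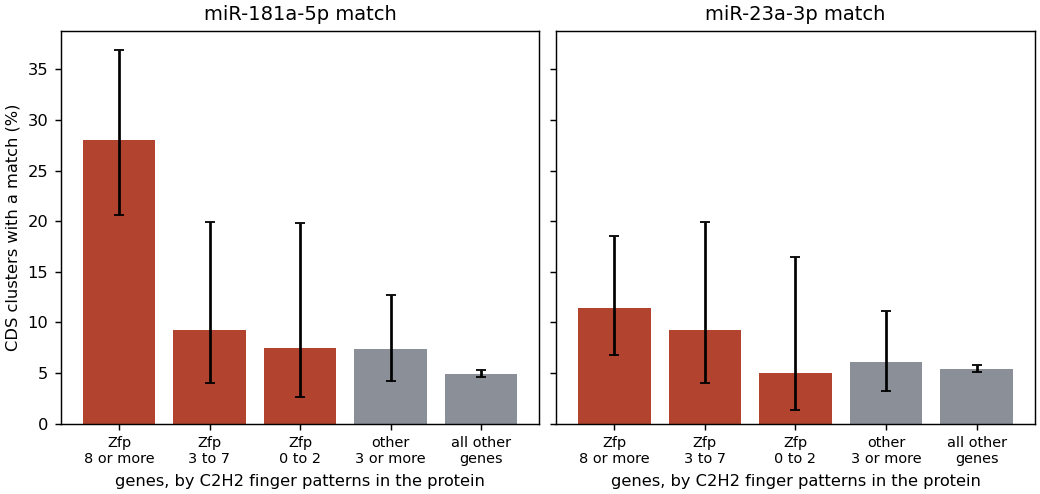
Share of CDS clusters (%) with at least 1 match to miR-181a-5p at the left and miR-23a-3p at the right, for Zfp genes with 8 or more, 3 to 7 and 0 to 2 C2H2 patterns (red), then genes without a Zfp symbol that have 3 or more patterns and all other genes (grey); lines are 95% Wilson intervals. For miR-181a-5p the first bar is 28.1% and the others lie between 4.93% and 9.26%.

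Within the Zfp genes, the clusters that held bases of a finger pattern had a miR-181a-5p match more often. Of 71 such CDS clusters, 25 had a match, or 35.2% (25.1 to 46.8), against 15 of 137 without finger bases, or 10.9% (6.75 to 17.3). For miR-23a-3p the counts were 8 in the clusters with finger bases, or 11.3% (5.82 to 20.7), and 12 in those without, or 8.76% (5.08 to 14.7), with overlapping intervals. The clusters as a whole covered fingers less than the coding sequences did: 19.8% of the coding bases in Zfp clusters lay in finger patterns, against 25.0% of the whole coding sequences of the same genes. In genes with 8 or more patterns these shares were 31.0% in clusters and 38.5% in the whole coding sequence.

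The sites that overlapped a finger lay at its cysteine codons. Of 46 miR-181a-5p sites in Zfp coding clusters, in 34 genes, 28 shared at least 1 base with a finger pattern, or 60.9%. At 16 of these 28, TGT was the codon of the first cysteine, so that GAA lay before the pattern. At the other 12, TGT was the codon of the second cysteine. GAA and TGT were codons in the reading frame at 35 of the 46 sites. Pairing extended to base 8 of the microRNA, giving TGAATGT, at 21 sites. The longer words were counted only within the coding part of clusters placed on a transcript. TGAATGT was present in 8.65% of Zfp CDS clusters and 1.03% of those of other genes. TGAATGTA, with an A after it, was present in 5.77% of Zfp CDS clusters and 0.256% of those of other genes. Counted in the same way, GAATGT was present in 17.8% of Zfp CDS clusters and 3.64% of those of other genes.

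Of the other leading words, that of miR-5098 shared the first of these places. ATGTAA of miR-5098 overlaps GAATGT by 4 bases, and at 15 of its 21 sites the TGT encoded the first cysteine. Of the 23 AATTCA sites of miR-183-3p, 20 overlapped a finger, and of 38 GTGGGA sites of miR-188-3p, 25 did. The TGTGGG sites of miR-3057-3p were placed only over the whole coding sequences of the Zfp genes named. There the TGT encoded the second cysteine at 489 of 628, or 77.9%. The ATGTGA sites of miR-23a-3p were different: 6 of 18 overlapped a finger, with the first cysteine at 5. At 10 of 18 the reading frame was another than that of the sites at a first cysteine.

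Coding sites of miR-23a-3p also lay upstream of the fingers, in a pair of neighbouring genes among others. Zfp719, in a cluster of 53 reads, and Zfp658, in a cluster of 31 reads, are shown because their 30 bases are nearly the same; they were chosen after their values were seen. ATGTGA is in capitals.
Zfp719, chr7:43586361-43586390 (plus strand): tgtcctttgatgATGTGActgtggacttca
Zfp658, chr7:43567275-43567304 (plus strand): tgtcctttgaggATGTGActgtggacttca

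The words were also frequent in the coding sequences of Zfp genes as a whole. Over the whole coding sequence, GAATGT occurred 1.59 times per kilobase in the 205 Zfp genes named, against 0.271 in other genes named. In the 188 annotated Zfp genes not named in the table it occurred 2.61 times per kilobase. It occurred 2.10 times per kilobase in Zfp genes with 8 or more patterns, 0.639 in those with 3 to 7 and 0.476 in those with 0 to 2, and 1.57 in the 283 annotated genes without a Zfp symbol that have 3 or more patterns, whether named in the table or not. ATGTGA occurred 0.992 times per kilobase in Zfp genes named and 0.297 in other genes named.

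In the whole coding sequences of the Zfp genes named, 79.7% of 690 GAATGT sites overlapped a finger, against 60.9% of the sites in clusters. The codon of the first cysteine held 34.3% of all sites and 34.8% of those in clusters. The codon of the second cysteine held 43.8% of all sites and 26.1% of those in clusters. These shares describe 46 sites in clusters, and their differences were not tested.

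Set against the density of their own genes, clusters had more miR-181a-5p matches per kilobase than their whole region, in CDS and in 3' UTR, both in Zfp genes and in other genes. Clusters were placed on a transcript for 208 of 209 Zfp CDS clusters and 14083 of 14234 of other genes. Only the bases of a cluster inside the CDS or 3' UTR were counted here, so densities differ from those of the deposited columns. Zfp CDS clusters had 1.76 matches per kilobase, against 1.32 at the density of the whole coding sequence of each gene, a ratio of 1.33, and CDS clusters of other genes had 0.332 against 0.257, a ratio of 1.29. For miR-23a-3p the ratio was 0.957 in Zfp genes and 1.23 in other genes. In 3' UTRs the miR-181a-5p ratio was 1.81 in Zfp genes, from 18 matches at 0.954 per kilobase against 0.528, and 1.28 in other genes. The miR-23a-3p ratio there was 1.29 in Zfp genes, from 9 matches, and 1.09 in other genes. The differences between these ratios were not tested.

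**Figure D5:**
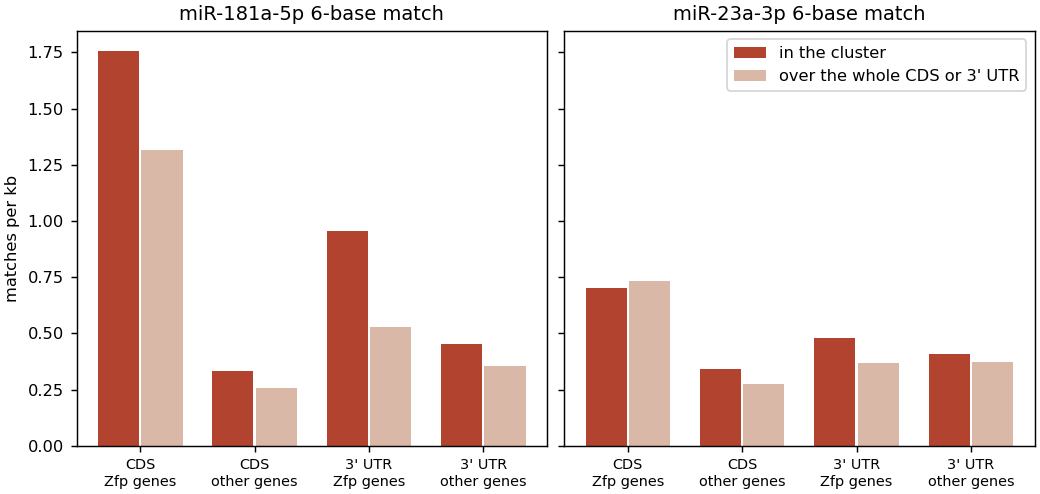
Matches per kilobase in clusters (dark) and at the density of the whole CDS or 3' UTR of the same genes (light), for Zfp genes and other genes, with miR-181a-5p at the left and miR-23a-3p at the right. In Zfp CDS the miR-181a-5p bars are 1.76 in clusters and 1.32 over the whole CDS; in CDS of other genes they are 0.332 and 0.257.

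Sites in the 3' UTR are shown for the deepest clusters. The deepest Zfp 3' UTR cluster with a miR-181a-5p match was that of Zfp449, with 225 reads and 2 matches, followed by those of Zfp704 with 57 reads, Zfp36l2 with 56, Zfp362 with 51 and Zfp365 with 39. They are shown, except Zfp362, with GAATGT in capitals, to be read against the coding sites above.
Zfp449, chrX:56365519-56365548 (plus strand): tgggaggagtctGAATGTagagattaaaaa
Zfp449, chrX:56365541-56365570 (plus strand): attaaaaatacaGAATGTaatggcttctct
Zfp704, chr3:9437391-9437420 (minus strand): tgtcagcaatatGAATGTtaaatgaacttg
Zfp36l2, chr17:84184328-84184357 (minus strand): gcttgagaatttGAATGTcggacgggttca
Zfp365, chr10:67888510-67888539 (minus strand): ttatgaggcaagGAATGTgactgtgaagtt
The Zfp365 line holds GAATGTGA, and its cluster counts for both microRNAs. Zfp704 had miR-181a-5p matches in 3 of its 11 3' UTR clusters, of 57, 35 and 15 reads, which was the most clusters among the genes shown. For miR-23a-3p, the 3' UTR clusters with a match and the most reads were those of Zfp365 with 39 reads, Zfp871 with 37, Zfp428 with 35, Zfp36l2 with 32 and Zfp945 with 25. The Zfp871 cluster of 566 reads held neither word.

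Exonic matches to miR-181a-5p were spread over 48 of the 209 Zfp genes, those to miR-23a-3p over 28, and both were present in 17. A cluster that holds GAATGTGA counts for both. The share of other genes with an exonic match was not computed, so these numbers cannot be called high or low. No cluster named more than 1 Zfp gene, and 5 named a gene of another kind as well. Near-identical copies put a limit on some assignments, because reads of duplicated sequence can be placed on either copy. Of 208 Zfp CDS clusters placed, 10 had at least 50% of their 30-base words in a transcript of another gene, and 26 had any. For Zfp960, Zfp97, Zfp874a, Zfp874b, Zfp747, Zfp433 and Zfp932 all such words were shared, so their read counts are uncertain; Zfp955b, Zfp719 and 1 Zfp60 cluster of 22 reads had over 50%. Without these 10 clusters the miR-181a-5p difference in CDS was 12.7 points. No 3' UTR cluster reached 50%.

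The Zfp clusters were unevenly spread over the chromosomes. Chromosome 7 held 89 of them, or 14.9%, in 51 genes, against 6.14% of the clusters of other genes. Chromosome 18 held 54, or 9.06%, in 9 genes, against 3.00% of those of other genes. Chromosome 17 held 50, or 8.39%, in 23 genes, against 3.90% of those of other genes. On chromosome 7 there were thus few clusters per gene, and on chromosome 18 many. Chromosome 13 held 15 genes with 19 clusters.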

How the data were processed

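The authors' deposited table gives 1 whole-number read count per cluster, with no normalization named and a lowest value of 10, per the file headers. Reads were aligned with BWA to mm10, per the submitters' processing notes; how clusters were called, any use of controls, duplicate removal and library depth were not stated there. The deposited microRNA columns hold seed match numbers. Members and gene lists were chosen with earlier results of these data known. Shares were computed with Python 3.11.15, pandas 2.3.3 and SciPy 1.17.1, with Wilson intervals at 95% and Newcombe intervals for differences. The reads carry no molecular identifiers, so intervals cover counting error only. Coordinates are 1-based. GENCODE M21 supplied transcripts and translated coding sequences for finger patterns, in place of the RefSeq proteins planned. Word counts and intervals were tested on simulated data. Named genes are the 10 with the most exonic reads, 5 with the most exonic clusters, 5 with the most intron-only clusters, those of the clusters richest in miR-181a-5p or deepest with a match, and a fixed list of genes with known roles; others are named where a count called for it. 1 marker gene is not reported here.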

Additional observations from a re-analysis of the deposited data

Results flagged for a closer look

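Reads opposite Zfp genes lie outside the comparisons above. There were 20 clusters that name a Zfp gene as antisense and no gene on their own strand, with 336 reads in all and 17 symbols, 7 of which are not among the 209 genes. The deepest lay opposite Zfp335 with 41 reads, Zfp882 with 33 and Zfp455 with 30. They drew attention because they hold reads in an annotation that the comparisons do not use. No control value is available for them.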

How the results depend on the processing

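Of 68 alternative settings over the 6 differences, 59 gave a value within the interval of the reported one. For miR-23a-3p in 3' UTRs, whose reported difference of 0.346 points has an interval that includes 0, the value was below 0 in 5 of 11 settings. The CDS share difference of 9.30 points was 1.30 with 1 cluster per gene, 2.80 weighted by reads and -2.57 among exonic clusters. The 3' UTR share difference of 5.07 points was -5.15 with 1 cluster per gene, 9.88 weighted by reads and -3.21 among exonic clusters. With at least 2 matches per cluster, the coding difference was 2.70 points for miR-181a-5p, from 2.87% in Zfp genes against 0.169% in other genes, and -0.155 points for miR-23a-3p, from 0% against 0.155%. Weighted by reads, the 3' UTR difference for miR-23a-3p was -3.46 points. The cause was not tested, apart from the exonic setting, which leaves out intron clusters by construction. The miR-181a-5p difference was positive in all 12 coding settings, up to 18.6 points, and in all 11 3' UTR settings, from 1.22 to 7.11 points. Leaving out Zfp106, which had no match, could only raise the coding difference. With 1 region per cluster, the 3' UTR difference did not change. The setting without clusters of shared sequence was added after seeing the data. No paired analysis was possible because no value belongs to a single library. Counts of 5 to 40 clusters with a match set the width of the intervals.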
